A study of Mus musculus with 12 samples.

Results

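The bromodomain genes described here are Brdt, Brd1, Brd2, Brd3, Brd7, Brd8, Brd9 and Brwd1, taken as every row of the deposited transcript table that carries one of these 8 gene symbols and that was matched to the known gene, as an identical, contained, alternatively joined or overlapping model on the same strand. The rule returned 57 of 71967 transcripts, of which 18 were RefSeq models and 39 were models assembled from these libraries. Whole testes were sampled from wild-type C57BL/6 mice at 3 months (3M), 6 months (6M), 12 months (12M) and 18 months (18M) of age, with 3 mice per age and 1 total RNA library depleted of ribosomal RNA per mouse, so the groups differed in age only, as far as the labels say. The comparison of interest was the level and the transcript composition of these genes across the 4 ages. Because a whole testis was measured, fewer cells of a type and less RNA per cell cannot be told apart.

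A bromodomain is a protein module that binds acetylated lysine, above all in the tails of histones. BRDT, BRD2 and BRD3 belong to the BET family, in which a pair of bromodomains is followed by an extraterminal domain. BRDT is the testis-specific member, present from meiotic spermatocytes to spermatids and needed for the compaction of acetylated chromatin during sperm formation. BRD1 is a scaffold of histone acetyltransferase complexes, BRD7 and BRD9 are subunits of SWI/SNF chromatin remodelling complexes, BRD8 belongs to the TIP60 acetyltransferase complex, and BRWD1 is a WD-repeat protein with bromodomains that is required for the making of fertile germ cells.

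Brdt, on the plus strand of chromosome 5 (mm10, 107331194 to 107387058), was represented by 2 RefSeq models that share their first exons and then separate at exon 7. The long model, NM_054054, has 19 exons and, in the matching GENCODE transcript Brdt-201, 956 codons. In the short model, NM_001079873, which matches Brdt-202, exon 7 is not spliced at chr5:107350426 but runs on for 315 bases, and the reading frame ends after 12 further coding bases, giving 326 codons, or 34.1% of the long frame. The bases around this point are printed because the short model had the highest FPKM of all Brdt models. Each line gives the last 60 bases of the shared exon 7 (chr5:107350367-107350426, plus strand, GRCm38, the assembly also called mm10) in lower case, followed in capitals by what the model reads next, which is the start of exon 8 (chr5:107356752-107356811) in Brdt-201 and the unspliced end of the reading frame with its stop codon (chr5:107350427-107350441) in Brdt-202.
Brdt-201: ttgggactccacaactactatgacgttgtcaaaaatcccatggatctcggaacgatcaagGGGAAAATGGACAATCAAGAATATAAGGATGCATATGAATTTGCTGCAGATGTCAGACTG
Brdt-202: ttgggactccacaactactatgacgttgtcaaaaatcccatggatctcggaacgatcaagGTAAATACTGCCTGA
Of the exons of these GENCODE transcripts, 18 of 19 and 6 of 7 have the same boundaries in the deposited models, and the first exon begins at another base.

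The short Brdt model took 71.4% of the summed FPKM of Brdt, but, being short, 46.2% ± 5.36 (SD, n = 12) of its estimated counts. Its FPKM (the deposited read density, scaled by transcript length and library depth) was 71.9, 71.4 and 76.1 at 3M, 76.1, 77.8 and 71.0 at 6M, 79.9, 71.2 and 70.8 at 12M, and 68.5, 46.7 and 73.6 at 18M. The second 18M mouse therefore stood below the other 11, which lay within 68.5 to 79.9. The long model NM_054054 had 13.3, 14.4 and 16.2 FPKM at 3M, 15.2, 15.97 and 13.6 at 6M, 17.2, 14.6 and 15.8 at 12M, and 14.1, 17.9 and 15.5 at 18M. Its values overlapped at all 4 ages. The assembled model MSTRG.15834.6, of whose 19 exons 5 do not have the boundaries of a RefSeq exon, ranged from 4.51 to 12.1 FPKM. The remaining 3 Brdt models stayed between 0.823 and 1.61 FPKM in 11 libraries. In the second 18M mouse they had 8.07 FPKM for MSTRG.15834.3, 4.32 FPKM for MSTRG.15834.1 and 3.09 FPKM for MSTRG.15834.2.

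Exon coverage gave a second view of the 2 Brdt forms, since it adds the reads of all models at an exon and depends less on how the assembler divided them. Coverage was brought to the FPKM scale of its library. Over exons 4 to 6, which both forms share, it was 108, 110.0 and 115 at 3M, 118, 113 and 105 at 6M, 122, 109.6 and 99.0 at 12M, and 107, 102 and 101 at 18M. Over exons 8 to 11, which the short form lacks, it was 56.1, 58.0 and 57.2 at 3M, 59.7, 59.0 and 55.4 at 6M, 55.2, 61.1 and 43.1 at 12M, and 53.3, 52.5 and 49.3 at 18M. The step at the end of exon 7 was thus seen in every library, with a ratio of 1.99 ± 0.139 (SD, n = 12) and a range from 1.79 to 2.30. The second 18M mouse, whose short model had the lowest FPKM, had a ratio of 1.95, inside the range of the others. On the log2 scale the ratio was 0.96 ± 0.0416 (SD) at 3M and 1.002 ± 0.0377 at 18M, a difference of 0.046 (exact permutation test, two-sided, n = 3 per age, p = 0.30, where 0.10 is the smallest p this design allows). Between the 6 younger (3M and 6M) and the 6 older (12M and 18M) mice the difference was 0.079 (exact permutation test, two-sided, p = 0.193, and 0.267 after Benjamini-Hochberg adjustment over 4 tests of 2 coverage measures). The step was therefore not shown to differ with age.

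**Figure D1:**
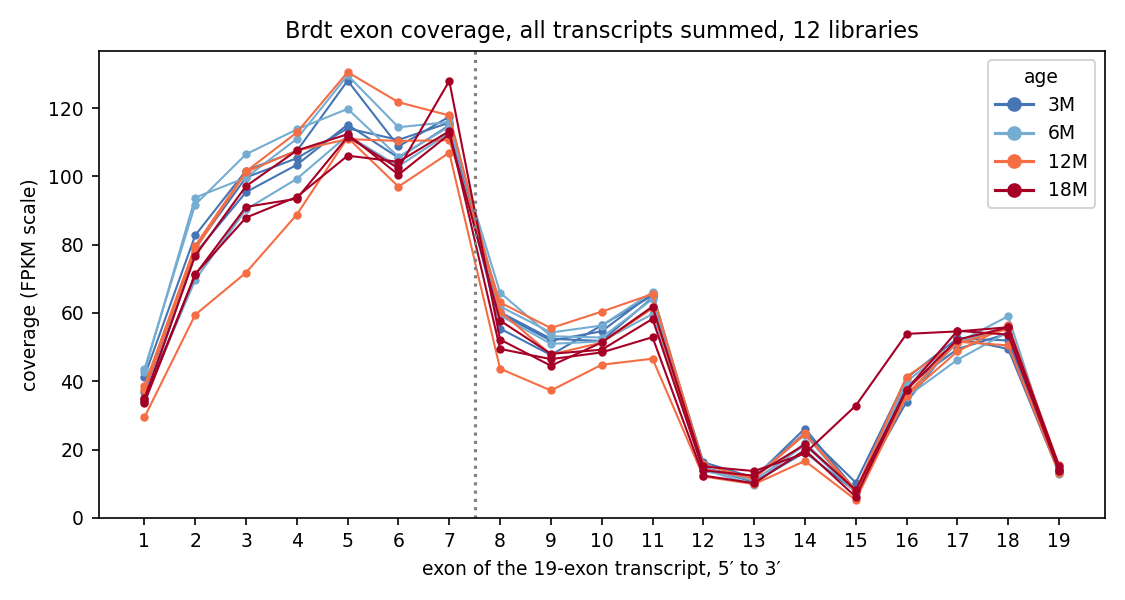
Coverage of the 19 exons of the long Brdt model in 12 testis libraries, with the reads of all Brdt models summed and the exon number from 5′ to 3′ on the horizontal axis and coverage on the FPKM scale on the vertical axis, where each line is 1 library coloured by age and the dotted line marks the end of the short form. All libraries drop after exon 7, and the mean ratio of exons 4 to 6 to exons 8 to 11 is 1.99.

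Farther downstream, coverage of exons 12 to 15 was lower again, at 10.97 to 20.1, and that of exons 16 to 18 returned to 45.4 to 54.8. The dip was present at all 4 ages. Exon 15, for which the models list start positions 3 bases apart, had 5.3 to 10.3 in 11 libraries and 32.9 in the second 18M mouse, so that the assigned coverage of this exon was itself not free of the division between models. By the ratio of 5′ to 3′ exons, Brdt ran against the common slope of these libraries. Both Brdt forms have exons 2 to 4, and the short form lacks the 3 exons before the last. This ratio therefore includes the step at the end of exon 7 and is not a separate trait. In 1028 other genes with a single model of 10 or more exons, the log2 ratio of exons 2 to 4 to the 3 exons before the last had a median of -0.65 over genes and reached at most 0.52, whereas Brdt had 0.99 (medians over 12 libraries). The 1028 genes were chosen to have 1 model, so no gene with a listed short form beside a long one could be among them. Brdt was thus not ranked against genes of its own kind. The other 7 bromodomain genes had mean ratios from -1.14 to -0.48.

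Gene levels were compared as the sum of the FPKM of all models of a gene. Brdt stood highest with 99.7 ± 6.17 FPKM (SD, n = 12), followed by Brd2 with 74.9 ± 8.42 and Brd3 with 38.3 ± 0.814 FPKM. Brd7 had 23.7 ± 1.59 and Brd9 21.9 ± 0.484 FPKM, Brd1 and Brd8 each had 14.2 FPKM with SDs of 0.834 and 0.925, and Brwd1 had 9.93 ± 0.783 FPKM. Brdt exceeded Brd2 in 12 of 12 libraries although their ranges touched (84.6 to 108 and 60.2 to 86.0 FPKM). Brd7 exceeded Brd9 in 10 of 12 libraries, and Brd1 exceeded Brd8 in 6 of 12, so that neither pair was set apart by its spread. The ranges of all other neighbours in this order did not overlap.

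The order of the BET genes depended on the measure. A sum of FPKM gives a short model more weight than a long one with the same number of reads, and the short model of Brdt held 71.4% of its FPKM but 46.2% of its counts. When the level was instead taken as the median coverage of the inner exons of the RefSeq model with most exons, on the same FPKM scale, Brd2 came first with 117 ± 9.53 (SD, n = 12), Brd3 second with 74.8 ± 3.49 and then Brdt with 54.8 ± 3.40, and the ranges of these 3 genes did not overlap. Most inner exons of the long Brdt model lie beyond the end of the short form. The log2 ratio of Brdt to Brd2 was 0.41 for summed FPKM and -1.10 for exon coverage. Brd7 (28.1), Brd9 (23.3), Brd8 (18.1), Brd1 (15.1) and Brwd1 (7.75) followed in nearly the same order on both measures.

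**Figure D2:**
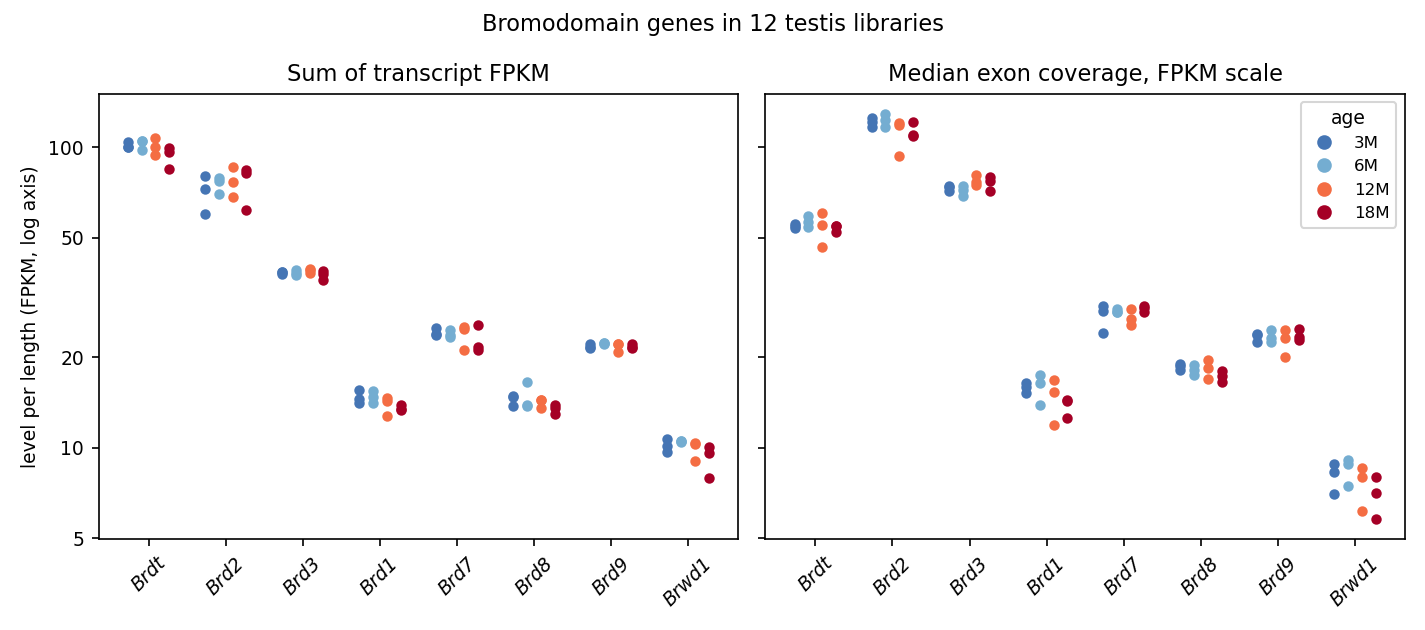
Level of the 8 bromodomain genes in each of 12 libraries, coloured by age, as the summed FPKM of all models (left) and as the median coverage of inner exons on the FPKM scale (right), both on a log axis. Brdt is highest on the left at 84.6 to 108 FPKM, and Brd2 is highest on the right at 93.6 to 129.

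For the tests of age, estimated counts were summed per gene and fitted with edgeR over all genes, and a gene was called at an adjusted p of 0.05 or less. None of the 8 genes was called between 3M and 18M, where 0.0795% of 22650 tested genes were called. None was called for a slope on age (0.215% of 23206 genes called), for any difference among the 4 ages (0.0776%), between the 6 mice of 3M and 6M and the 6 of 12M and 18M (0.559% of 22552), or at the single steps from 3M to 6M (0.0707%), 6M to 12M (0.0442%) and 12M to 18M (0.022%). DESeq2, which called 1.11% of genes between 3M and 18M, 2.1% for the slope, 1.36% for any difference and 3.44% for the younger against the older mice, and 0.329%, 0.437% and 0.194% at the single steps, also called none of the 8. With a log2 fold of at least 1 added to the edgeR rule, 0.0662% of genes and none of the 8 were called between 3M and 18M. At an unadjusted p of 0.05 edgeR picked Brd2 and Brd8 between 3M and 18M and Brd2 alone for the slope and for younger against older mice, against 12.3%, 15.9% and 18.2% of all genes, and none for any difference among ages, against 9.2%.

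Among the BET genes, Brdt had 266, 267 and 275 CPM (counts scaled by library size, the scale of the tests, not adjusted for length) at 3M, 278, 272 and 253 at 6M, 279.5, 272 and 238 at 12M, and 259, 269 and 260.3 at 18M. Only the third 12M mouse fell outside the range of 253 to 279.5 of the others, and the ages overlapped. From 3M to 18M the log2 difference was -0.04 ± 0.037 (SE) with a 95% interval from -0.13 to 0.05 (edgeR, adjusted p = 0.682), and between the younger and older mice it was -0.03 with an interval from -0.12 to 0.05. Brd2, a broadly expressed BET gene, had 362, 388 and 394 CPM at 3M, 388, 386 and 367 at 6M, 373, 381 and 311 at 12M, and 366, 342 and 347 at 18M. Its 18M values were lower on average but overlapped those of 3M, and on the summed FPKM scale the order turned, with 71.0 ± 10.1 FPKM at 3M and 76.0 ± 12.5 at 18M (SD, n = 3). The log2 difference of Brd2 from 3M to 18M was -0.12 ± 0.049 (SE), with an interval from -0.24 to -0.0045 (edgeR, unadjusted p = 0.0438, adjusted p = 0.399), and between younger and older mice it was -0.11 (unadjusted p = 0.0283, adjusted p = 0.219). Brd3, a BET gene also active in somatic cells, was among the steadiest with 217 to 235 CPM over the 12 libraries, and its log2 difference of -0.02 had an interval from -0.12 to 0.07.

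Brd1, the scaffold of acetyltransferase complexes, had 75.8, 83.8 and 78.2 CPM at 3M, 79.5, 81.0 and 72.1 at 6M, 77.6, 77.6 and 67.0 at 12M, and 72.5, 75.4 and 72.4 at 18M. Its 3 values at 18M lay just below the lowest at 3M (log2 difference -0.12, interval -0.24 to 0.0074, adjusted p = 0.422). Brd8, the TIP60 subunit, had 83.7, 86.8 and 78.6 CPM at 3M, 91.6, 78.2 and 73.0 at 6M, 81.5, 83.7 and 73.4 at 12M, and 74.6, 76.8 and 77.4 at 18M. The 3M and 18M values of Brd8 did not overlap, but the 6M mice spanned both (log2 difference -0.13, interval -0.25 to -0.0084, adjusted p = 0.388). Brwd1 had 109, 103 and 104 CPM at 3M, 102, 102 and 104 at 6M, 109, 105 and 88.8 at 12M, and 101, 101 and 85.7 at 18M. Its low values came from the third mice of 12M and 18M (log2 difference -0.14, interval -0.32 to 0.04, adjusted p = 0.474). Brd1, Brd8 and Brwd1 were thus the 3 members with all 18M libraries below all 3M libraries, a pattern found in 9.83% of tested genes, and no member showed the opposite pattern, found in 10.1%.

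The 2 SWI/SNF subunits had positive estimates with intervals that included 0. Brd7, of the PBAF complex, ranged from 63.0 to 71.0 CPM with 66.2 ± 2.01 (SD, n = 3) at 3M and 69.4 ± 1.47 at 18M (log2 difference 0.06, interval -0.04 to 0.17, adjusted p = 0.579). On the summed FPKM scale Brd7 had 24.3 ± 0.684 at 3M and 22.8 ± 2.496 at 18M, the opposite order. Brd9, of the non-canonical BAF complex, ranged from 71.3 to 79.2 CPM with 73.5 ± 0.82 at 3M and 75.1 ± 3.20 at 18M (log2 difference 0.03, interval -0.08 to 0.13, adjusted p = 0.844), and the sign of this difference changed when 1 library was left out. Over the 8 genes, 6 differences from 3M to 18M were negative and 2 positive with a median of -0.08, beside a median of 0.0022 over all tested genes. Estimated counts per member were between 3245 (Brd7) and 24326 (Brd2) in a library.

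**Figure D3:**
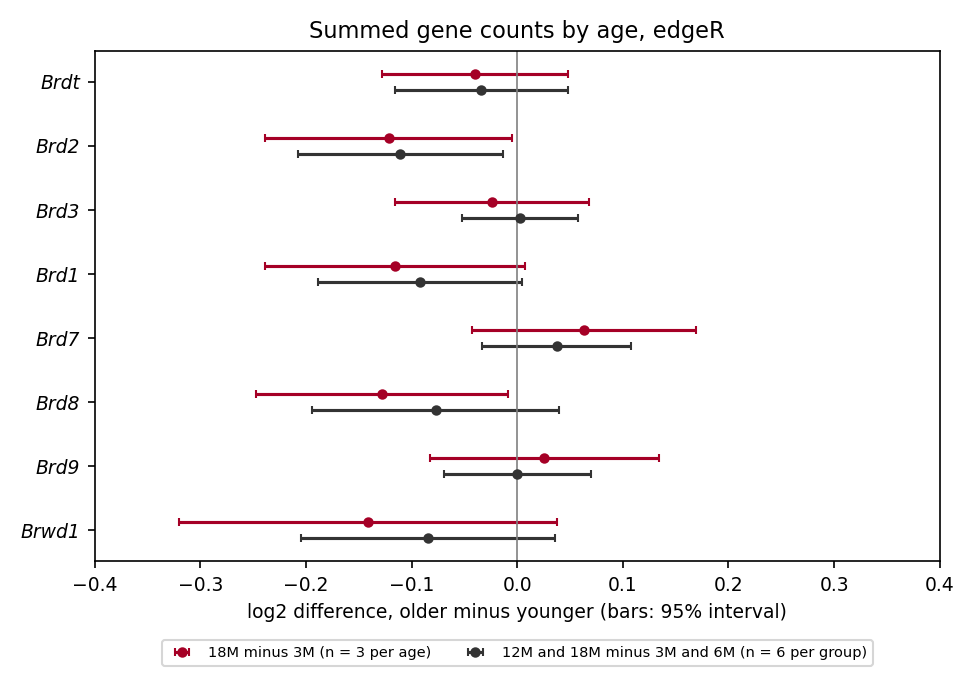
Log2 difference in summed counts of the 8 genes, older minus younger, with 95% intervals from edgeR as bars, for 18M minus 3M (red, 3 mice per age) and for 12M and 18M minus 3M and 6M (black, 6 mice per group). Estimates run from -0.14 for Brwd1 to 0.06 for Brd7, and the intervals of Brd2 and, from 3M to 18M, Brd8 end just below 0.

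The third 12M mouse had the lowest CPM of 5 of the 8 genes. It also had the lowest 5′ to 3′ coverage of the series, a measure often read as a sign of RNA integrity. Over the 1028 single-model genes the median log2 ratio of 5′ to 3′ coverage was -0.64, -0.44 and -0.53 at 3M, -0.48, -0.52 and -0.73 at 6M, -0.71, -0.58 and -0.97 at 12M, and -0.60, -0.79 and -0.90 at 18M. The third mice of 12M and 18M were lowest. The older 6 libraries averaged 0.20 less than the younger 6 (exact permutation test, two-sided, n = 6 per group, p = 0.026, and 0.104 after Benjamini-Hochberg adjustment over 4 tests). The same mean ratio was lower in the older libraries for 8 of the 8 bromodomain genes, by 0.10 for Brd3 to 0.28 for Brd8. The fall of 0.20 in the median of the 1028 genes lies within this range, so the shift was not particular to the members. How many of the 1028 genes were lower was not counted. Without the third mice of 12M and 18M the log2 difference of Brdt between younger and older mice was 0.0031 in place of -0.03. Brdt and Brd9 were the members whose sign changed in that fit. The differences of Brd1, Brd2 and Brd8 stayed negative, and the low values of Brwd1 were those of the mice left out. The part of this coverage shift in the small negative differences was not tested.

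**Figure D4:**
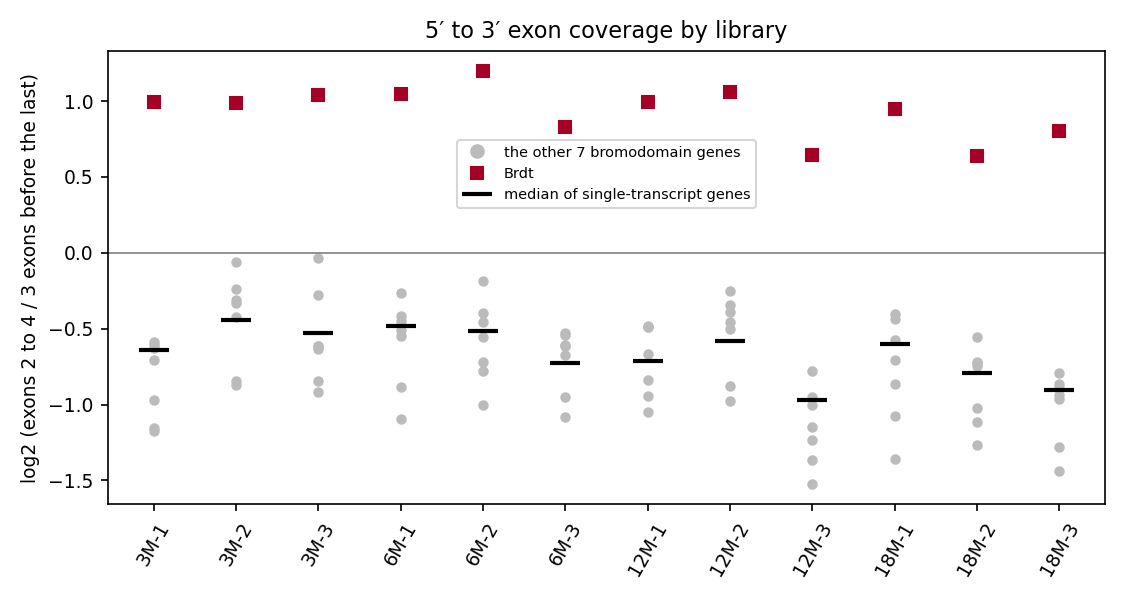
Log2 ratio of the coverage of exons 2 to 4 to that of the 3 exons before the last in each library, for Brdt (red squares), the other 7 bromodomain genes (grey points) and the median of 1028 single-model genes (black bars). Brdt lies above 0 in all 12 libraries, and the black bars are lowest in the third mice of 12M and 18M, at -0.97 and -0.90.

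Levels of single models were far less steady than gene sums. Of the 57 models, 46 reached a mean of 1 FPKM at some age, and 16 of these 46 varied over 5-fold between libraries. The 11 others were in Brd8, Brd9, Brd1, Brd2 and Brwd1 and stayed at or below 1.80 FPKM in any library. Across all transcripts edgeR called 0.108% between 3M and 18M and 0.0103% for the slope on age, and none of the 52 or 53 tested bromodomain models was among them. At an unadjusted p of 0.05 there were 5 and 10 such models, beside 5.4% and 7.15% of all transcripts. DESeq2 called 3 models between 3M and 18M, NM_001204973 and MSTRG.8922.8 of Brd2 and MSTRG.20015.2 of Brd7, and 7 for the slope, against 3.37% and 1.72% of all transcripts. On simulated counts most transcripts that DESeq2 called had not been changed. Models were simulated independently there, unlike models of a gene that exchange level, so the error rate in these data may differ.

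Brd2, on the minus strand of chromosome 17 (34112019 to 34122822), showed the widest swings. MSTRG.8922.8, whose first and last exons do not match those of a RefSeq model, had 1.24, 1.28 and 1.99 FPKM at 3M, 2.41, 2.64 and 3.46 at 6M, 36.4, 3.39 and 43.7 at 12M, and 34.4, 50.3 and 1.84 at 18M. It was thus high in 4 of the 6 older libraries and low in the other 8. NM_001204973 had 4.19, 12.0 and 19.7 FPKM at 3M, 17.8, 7.67 and 16.8 at 6M, 0.0352, 6.30 and 0.0634 at 12M, and 0.0299, 0.025 and 1.43 at 18M. It was near 0 exactly where MSTRG.8922.8 was high. The non-coding RefSeq model NR_037970 took 52.4% of the summed level and ranged from 25.9 to 53.2 FPKM. The first exon found in MSTRG.8922.8 alone (chr17:34118290-34118508) had a coverage of 0.643 to 1.68 on the FPKM scale in the 12 libraries, with 0.643 to 1.58 in the 4 libraries where the model was high and 0.719 to 1.68 in the other 8. Reads of the exon that sets the model apart therefore did not follow the level assigned to it.

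Brd7, on the minus strand of chromosome 8 (88329988 to 88362191), had a similar exchange. NM_012047 had 22.1, 20.8 and 21.6 FPKM at 3M, 20.1, 19.8 and 20.1 at 6M, 21.6, 22.7 and 14.4 at 12M, and 11.6, 22.6 and 13.0 at 18M. MSTRG.20015.2 had 7.37 and 7.05 FPKM in the first and the third 18M mice, 1.76 in the third 12M mouse and at most 0.476 in the other 9, which are the libraries where NM_012047 was not reduced. Coverage of the first exon block of Brd7 (chr8:88361906-88362191), summed over all its models, was 3.18 to 5.62 in the 12 libraries. In the 3 libraries of the exchange it was 4.18 to 5.27. MSTRG.20015.2 begins inside this block, at 88362042, so the block does not set the 2 models apart. Unlike the exon of Brd2, it cannot show whether reads followed the exchange. For Brd1, on the minus strand of chromosome 15 (88687035 to 88734219), the same kind of exchange occurred at several ages. NM_001033274 had 4.64 to 8.95 FPKM in 7 libraries and at most 0.339 in the other 5, and MSTRG.7459.8 was listed at 0 in those 7 and had 5.65 to 12.9 FPKM in the 5, which were the first 6M mouse, the 3 mice of 12M and the first 18M mouse. The summed level of Brd1 ranged only from 12.7 to 15.6 FPKM.

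**Figure D5:**
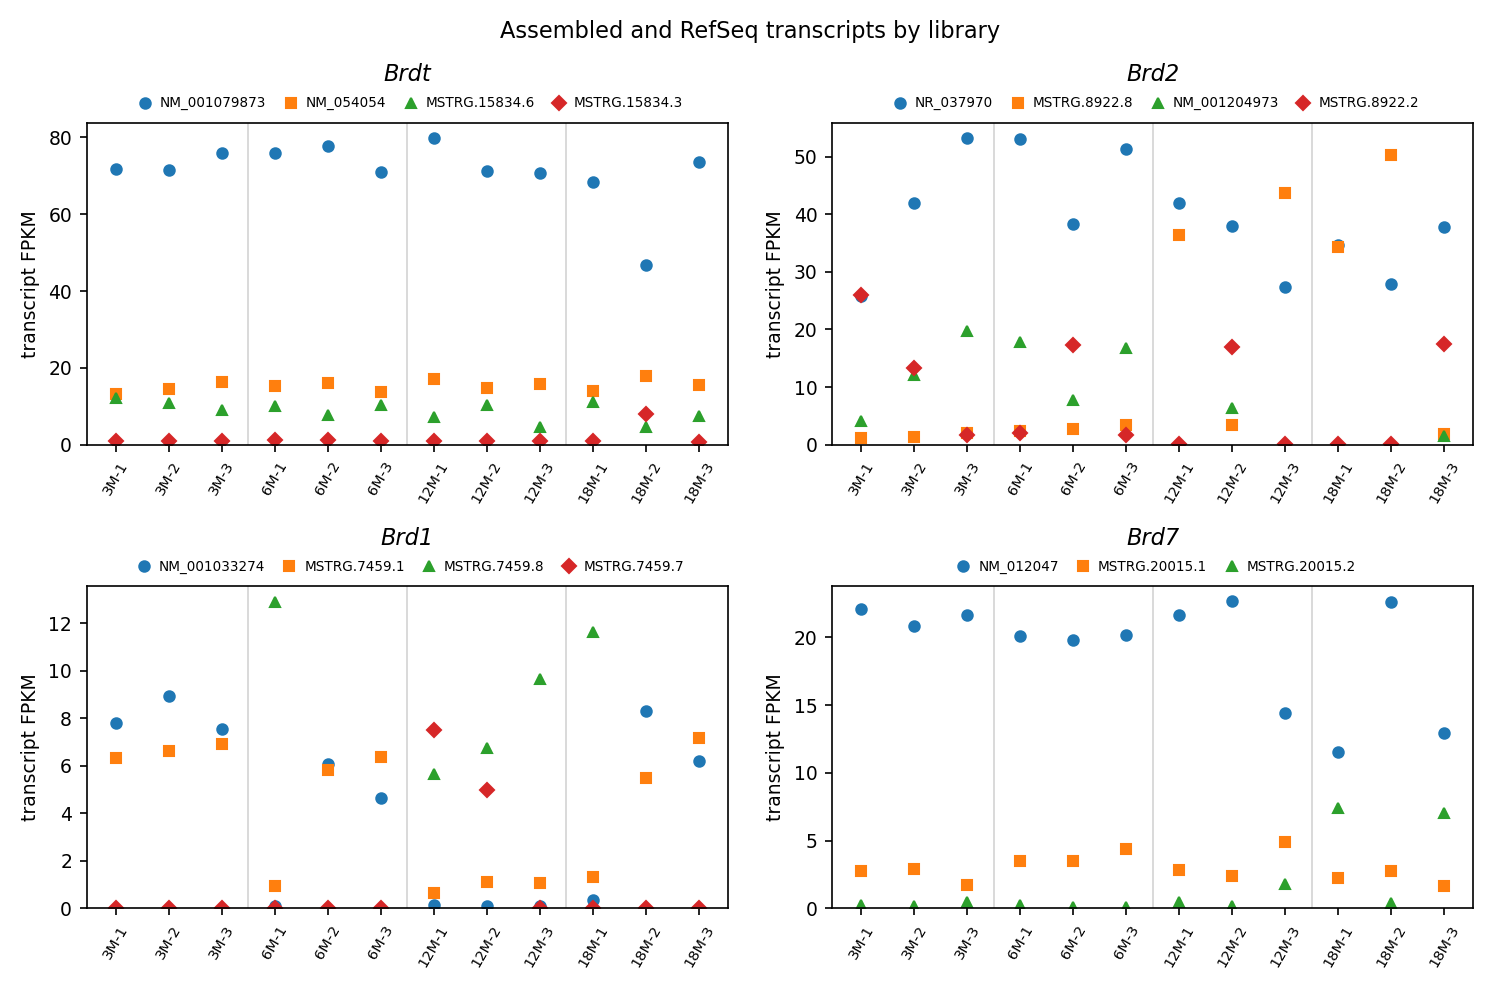
FPKM of the main models of Brdt, Brd2, Brd1 and Brd7 in each library (horizontal axis, in order of age, with grey lines between ages), with 1 marker shape per model. MSTRG.8922.8 of Brd2 is at 34.4 to 50.3 FPKM in 4 older libraries and at most 3.46 in the others, and the short Brdt model stays between 46.7 and 79.9 FPKM.

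Whether the shares of a gene's models changed with age was tested in 2 ways. The transcript usage test of edgeR (diffSpliceDGE) called none of the 8 genes between 3M and 18M, where it called 1.58% of 9236 genes (9.01% at an unadjusted p of 0.05, with Brd2, Brd7 and Brwd1 among them). For the slope on age it called Brdt (adjusted p = 0.0166), Brd2 (0.0373), Brd7 (4.11e-04) and Brwd1 (1.15e-04), where it called 1.92% of 9765 genes. For the slope on simulated counts, most genes this test called had not been changed, so its adjusted p-values did not hold their nominal error rate there. The models of a gene were simulated independently, unlike models that exchange level, so the error rate in these data may differ. When each of the 12 libraries was left out in turn, the call of Brd2 was lost in 7 fits, those of Brdt and Brwd1 were lost without the second 18M mouse alone, and that of Brd7 was kept in 12. The MSTRG.8423.3 model of Brwd1 had 0.962 FPKM in that mouse and at most 0.0372 elsewhere. The MSTRG.15834.3 model of Brdt had 8.07 FPKM in that mouse and at most 1.17 elsewhere. Relative to the gene, the log2 slope per month in the usage test was 0.119 for MSTRG.15834.3, the largest among the Brdt models. It was -0.0106 for the short Brdt model, whose drop was in that mouse too. A limma test of the share of each model within its gene, chosen after the data were seen, called none of the 53 tested bromodomain models for the slope and 0% of 38844 models in all, with 8 of the 53 at an unadjusted p of 0.05 beside 4.87% of all. It called none of 52 between 3M and 18M (0.185% of all, with 1 of the 52 at an unadjusted p of 0.05 beside 4.1% of all). It also called none between the younger and older mice (0.0228% of all, with 7 of 52 at an unadjusted p beside 5.03%), where NM_001204973 had the lowest p of the 8 genes (adjusted p = 0.564).

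Brd3, on the minus strand of chromosome 2 (27445581 to 27507656), was carried for 66.2% by MSTRG.11122.1, whose first exon does not match a RefSeq exon, which had 23.4 to 29.3 FPKM in 11 libraries and 12.3 FPKM in the second 18M mouse. Brd9, on the plus strand of chromosome 13 (73937811 to 73992840), was divided mainly between MSTRG.5504.1 (5.41 to 9.04 FPKM) and NM_001024508 (4.54 to 7.93 FPKM). Brd8, on the minus strand of chromosome 18, was spread over 11 models, none above 3.08 FPKM in any library. One of them, MSTRG.9671.5, joins 36 exons and extends beyond the RefSeq models of Brd8. MSTRG.9671.3 and MSTRG.9671.1 also run past the RefSeq 3′ end at 34598615, to 34579973 and 34579846. They held 16.9% and 15.8% of the summed FPKM of Brd8, and MSTRG.9671.5 held 6.22%. The levels of these models are uncertain, and so is their part of the Brd8 sum. At Brd9, MSTRG.5504.2, with 2.40% of its summed FPKM, runs past the RefSeq end at 73960889 to 73992840. Brwd1, on the minus strand of chromosome 16 (95991582 to 96085132), had a 40-exon model MSTRG.8423.5 at 2.80 to 4.09 FPKM. It also had a short RefSeq model of 5 exons, NM_176928, at 1.24 to 1.75 FPKM.

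Of 30 other bromodomain genes listed for comparison, all were tested and none was called in any of the 3 main comparisons. Their median log2 difference from 3M to 18M was -0.12, beside 0.0022 over all tested genes, with 25 of 30 negative and 9 at an unadjusted p of 0.05, beside 12.3% of all genes. Of 29 partners of the members' complexes that the table held, from the elongation factor P-TEFb to the TIP60 complex, none was called either. Between 3M and 18M 7 were at an unadjusted p of 0.05, beside 12.3% of all genes. Pbrm1 is in both lists and is counted in the 9 and in the 7. In that comparison the lowest p among both lists belonged to Kat7, the acetyltransferase that works with BRD1, with a log2 difference of 0.59 (adjusted p = 0.255), and the next to Smarca4, an ATPase of SWI/SNF complexes, with -0.21 (adjusted p = 0.344).

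Genes whose CPM followed Brdt most closely over the 12 libraries, among 10423 genes of at least 10 CPM, were Prom1 (Pearson r = 0.964, Spearman rho = 0.902), Ppp4r4 (r = 0.945, rho = 0.888) and D1Pas1 (r = 0.941, rho = 0.874). Without the third mice of 12M and 6M, which lay farthest from the Brdt median, r was 0.893, 0.90 and 0.784. These libraries differ in 5′ to 3′ coverage and depth as well as in age, and no test was made.

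The libraries held 50924104 to 71803379 estimated counts in all. All listed markers of spermatogonia, spermatocytes, spermatids and Leydig cells were above 0 in every library, as were those of Sertoli cells except Amh, which was at 0 in 2 libraries, and 5 markers of epididymis summed to at most 0.602 CPM, with Lcn5 at 0. Spermatocyte markers, of the cells in which Brdt begins to be transcribed, summed to 953 to 1045 CPM with none of 6 called. The 6 round spermatid markers summed to 921 to 1103 CPM at 3M and 1192 to 1215 at 18M, with none called. The 6 elongating spermatid markers summed to 15126 to 16717 CPM at 3M and 15769 to 18864 at 18M, also with none called. No estimate was negative in either list. At an unadjusted p of 0.05 (edgeR), 5 and 1 of them passed for the slope, beside 15.9% of all genes. In the older mice 5 and 4 passed, beside 18.2% of all genes. The 6 Leydig cell markers summed to 805 to 970.3 CPM at 3M and 528 to 721 at 18M, and 3 of them, Cyp17a1, Cyp11a1 and Lhcgr, were called lower on the slope and in the older mice (log2 difference -1.04, -1.18 and -1.05 in the latter). Of the peritubular and vascular markers Col1a1 was called lower in the older mice, by -0.79. Their part in the small differences of the bromodomain genes was not tested.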

How the data were processed

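Per the labels and the study's methods, libraries were prepared with a TruSeq kit that does not mark strand, after removal of ribosomal RNA, and the authors aligned reads with HISAT2 to mm10 and merged and quantified transcripts with StringTie (version 1.3.3b in the file headers). The deposited estimated counts equal coverage × length / 101, rounded up (0 of 863604 values off by over 1 read), and the deposited FPKM values are per library. Each assembly also holds exon coverage. Counts were summed per gene over the stated rows, and unnamed loci by their identifier. Fits used edgeR 4.0.16 (TMM, filterByExpr, quasi-likelihood F-test, Benjamini-Hochberg), with DESeq2 1.42.0 and limma 3.58.1 as alternatives, and were tested on simulated data. FPKM were logged with a pseudocount of 1 or 0.001. Models with a mean of 1 FPKM or more at an age are described, list genes are named if called or, if none, the 2 with the lowest p, and the 3 genes nearest to Brdt are named. Members and lists were chosen with earlier results of these data known. Exon coverage per RefSeq exon is the overlap-weighted sum over models, scaled by each library's FPKM to coverage ratio. Sequences are from GENCODE vM21 (GRCm38). Replicates are separate mice. Models with the opposite strand were left out of all sums. 1 comparison gene is not reported here.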

Additional observations from a re-analysis of the deposited data

Results flagged for a closer look

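The rule for bromodomain rows left out 7 models that carry a member's symbol but lie on the opposite strand, 3 each at Brdt and Brwd1 and 1 at Brd9. Such models are outside the comparisons above, and 2 of them had over 3 estimated counts, the limit that a count of 0 allows, in all 12 libraries. Both lie opposite the 3′ part of Brwd1 on chromosome 16. MSTRG.8425.1 (96004191 to 96009594) had a median of 1.87 FPKM and ranged from 0.418 to 2.98, with 13 to 122 counts. MSTRG.8426.1 (96004782 to 96010018) had a median of 1.37 FPKM and ranged from 1.02 to 2.04, with 22 to 46 counts. The libraries do not mark strand, so these reads cannot be told apart from reads of Brwd1 other than by their splice sites. With 3 mice per age, no age group was tested for samples that stand apart.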

How the results depend on the processing

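No bromodomain gene and no single model became called when 1 library was left out (range 0 to 0), with DESeq2 at gene level, or under the other filters and scalings tried. Without adjustment of p, 2 genes passed between 3M and 18M (12.3% of all genes), 1 for the slope (15.9%) and 1 for younger against older mice (18.2%). For 3M against 18M and the slope 5 and 10 models passed (5.4% and 7.15% of all transcripts). DESeq2 called 3 and 7 models (3.37% and 1.72%). Transcript usage gave 3 genes at an unadjusted p between 3M and 18M (9.01% of all genes). At the adjusted p it gave 0 to 1 when 1 library was left out, with 218 to 289 genes called in all (Brwd1 without the first, Brd7 without the second and Brd2 without the third 18M mouse). For its slope, 4 genes were called (1.92% of all genes), and 1 to 4 when 1 library was left out (291 to 345 genes in all). The same 4 were called without a filter on low counts (1013 of 10932 genes in all) and without the third 12M and 18M mice (265 of 9908). The Simes test called 1 (116 of 9765 genes in all), the fit without the third 12M and second 18M mice 1 (274 of 9911), and limma on shares 0 (0% of all models). With the mouse number as a replicate block 1 gene (Brd7) was called (110 of 9765). The labels share only a number: over 18 same-number pairs the correlation of deviations had a median of -6.4e-05 and did not exceed 0.0835. The settings that leave out 2 named libraries, and the limma tests of shares and exon coverage, were chosen after seeing the data.

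The log2 ratio of Brdt to Brd2 was 0.41 by FPKM and -1.098 by inner exon coverage. Of 488 gene differences recomputed, 439 kept their direction, 49 changed sign and 0 became called, and the cause of the changes was not tested. With limma on log2(FPKM + 1) and on log2(FPKM + 0.001), Brd2 was 0.09268 and 0.0939 from 3M to 18M, 0.005113 and 0.005177 per month, and 0.05913 and 0.05988 in older mice. Brd7 was -0.0879 and -0.09184, -0.005517 and -0.005768, and -0.05169 and -0.05408. Brd9 was -0.0009835 and -0.001029 per month, and -0.01843 and -0.01928 in older mice, where Brd3 was -0.006934 and -0.007126. With only models identical to RefSeq, Brd3 was 0.5794 and Brwd1 0.07052 from 3M to 18M, Brd3 was 0.03588 per month, Brd7 was -0.443, -0.02662 per month and -0.2173 in older mice, and Brd9 was -0.003309 per month and -0.06667 in older mice. Brd9 in older mice was also -0.0001402 with DESeq2, -0.0006391 with its size factors, -0.004525 with library size only (Brd3 -0.002019) and -0.0008363 with all models. Without the third 12M and 18M mice Brdt was 0.003084 in older mice, and Brd9 was -0.006493 from 3M to 18M, -0.0006554 per month and -0.006098 in older mice. Leaving out 1 library, Brd9 ranged from -0.005588 to 0.04876 from 3M to 18M, from -0.001124 to 0.00186 per month and from -0.01414 to 0.02042 in older mice, and Brd3 from -0.001818 to 0.0006519 per month and from -0.004627 to 0.01707 in older mice.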
